A study of Mus musculus with 12 samples.

Results

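Gfap, Vim, Serpina3n, Cd44, Osmr and Stat3 are genes of the reactive astrocyte, and they were taken by name from the deposited tables, as 6 of 21878 genes. Hippocampal RNA was sequenced from mice with a conditional double knockout (DKO), in which Psen2 is one of the genes targeted, and from wild-type controls (WT). Mice of each genotype were anesthetized with sodium pentobarbital and killed at 9 a.m. (Day) or 9 p.m. (Night). The groups were Night DKO, Day DKO, Night WT and Day WT, with 3 libraries each and 12 in all. The sources used here do not give the Cre driver of the conditional alleles, the strain, age or sex of the mice, or whether WT mice carried floxed alleles. No label says that the libraries of a group came from different mice, so every p-value refers to the spread among libraries, which may be technical. Levels are in FPKM, a fragment count divided by transcript length and by the size of the library.

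Astrocytes are the glial cells that take up glutamate, buffer potassium and line blood vessels, and they become reactive in injury, inflammation and neurodegeneration. In reactive astrocytes the intermediate filament proteins GFAP and vimentin build a denser cytoskeleton. Cytokines of the interleukin-6 family, such as oncostatin M, bind receptors that contain gp130, which activate JAK kinases and the transcription factor STAT3, a driver of Gfap transcription.

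The 6 genes lie on 4 chromosomes of the mouse build GRCm38.p6, where RefSeq annotates each as protein coding. Gfap lies at chr11:102887336-102897200 on the minus strand, Vim at chr2:13574311-13582826 on the plus strand, and Serpina3n at chr12:104406646-104414334 on the plus strand. Cd44 lies at chr2:102811141-102901669, Osmr at chr15:6813568-6874968 and Stat3 at chr11:100886806-100939594, all on the minus strand. Stat3 shares exon bases with Stat5a on the opposite strand in the GENCODE annotation, which may not be the annotation behind the deposited values. The sources used here do not say whether those values were counted by strand, so reads of the 2 genes may not be separated. Serpina3n sits in a cluster of close paralogs, and reads of near-identical copies are uncertain. Its neighbours Serpina3a, Serpina3b, Serpina3j and Serpina3k were listed at 0 in all 12 libraries, and the highest value of any other cluster gene in the tables was 0.509 FPKM, for Serpina3g.

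The promoter windows of the 3 genes of the set with the largest differences between genotypes are shown, because 2 of these genes were higher and 1 had lower values in DKO libraries. Each window holds the 250 bases before and the 50 bases from the start site in the RefSeq promoter table, from build GRCm38.p6, written 5′ to 3′ on the gene's own strand. For Gfap and Vim this site is the gene start given above, and for the other 4 genes it lies inside the gene, downstream of that start. Capitals mark a match to the STAT motif TTCNNNGAA or the AP-1 motif TGANTCA. The windows are chr11:102897151-102897450 on the minus strand for Gfap, chr12:104406458-104406757 on the plus strand for Serpina3n and chr2:13574061-13574360 on the plus strand for Vim.
Gfap: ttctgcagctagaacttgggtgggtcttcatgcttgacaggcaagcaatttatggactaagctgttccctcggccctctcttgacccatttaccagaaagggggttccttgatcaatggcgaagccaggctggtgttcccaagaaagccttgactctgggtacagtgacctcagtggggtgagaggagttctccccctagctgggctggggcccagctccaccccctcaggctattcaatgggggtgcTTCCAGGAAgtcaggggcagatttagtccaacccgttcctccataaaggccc
Serpina3n: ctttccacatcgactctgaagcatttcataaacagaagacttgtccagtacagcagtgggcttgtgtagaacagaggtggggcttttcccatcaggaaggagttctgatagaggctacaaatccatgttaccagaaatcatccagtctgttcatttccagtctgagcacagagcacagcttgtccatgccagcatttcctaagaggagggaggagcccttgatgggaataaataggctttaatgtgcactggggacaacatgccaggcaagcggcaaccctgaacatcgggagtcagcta
Vim: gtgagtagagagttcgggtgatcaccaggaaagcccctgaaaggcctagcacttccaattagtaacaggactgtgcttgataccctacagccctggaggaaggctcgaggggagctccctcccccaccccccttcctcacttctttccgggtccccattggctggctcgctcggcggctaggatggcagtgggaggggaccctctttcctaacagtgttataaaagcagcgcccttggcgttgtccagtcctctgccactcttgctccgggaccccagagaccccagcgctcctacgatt

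Both strands were searched in the windows of all 6 genes, each of which had an entry. The STAT motif was found in 1 of 6 windows, that of Gfap, as TTCCAGGAA from base -2 to base 6 with the start base counted as 0, and in 8.3% of the 32851 windows of all genes. The AP-1 motif was found in 1 of 6 windows, that of Osmr, as TGATTCA from base 3 to base 9, and in 7.81% of all windows. The NF-kappaB motif, read as 3 G, 5 bases of any kind and 2 C, was found in 5 of 6 windows, all but that of Stat3, and in 50.8% of all windows. In the Gfap window it overlapped the STAT match. A match describes the letters of the window and is not a measured binding site.

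The libraries were alike in depth, between 0.917 and 1.046 times that of Day WT replicate 1 as read from the steps between low values, but the number of reads per library is not given, so no counting interval can be set. Psen2 was 0.275 to 0.594 FPKM in DKO libraries and 1.47 to 3.64 FPKM in WT libraries. All 16 homeostatic astrocyte markers passed the filter on low values, and their summed level was 937 to 1050 FPKM in DKO libraries and 859 to 1007 FPKM in WT libraries. The neuron markers Slc17a7 and Prox1, the second a marker of hippocampal granule cells, were present in every library. Night DKO replicate 1 stood apart from the other Night DKO libraries: its microglia markers summed to 150 FPKM, against 306 and 309 FPKM in Night DKO replicates 2 and 3, while its Psen2 level of 0.486 FPKM lay within the DKO range. Choroid plexus markers, which come from tissue next to the hippocampus, summed to between 77.5 FPKM in Day DKO replicate 2 and 3290 FPKM in a Night WT library. In bulk tissue, fewer cells of a type and less RNA per cell cannot be told apart.

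Gfap and Serpina3n were higher in DKO hippocampus than in WT hippocampus, while Vim, the other filament gene of the set, had lower values in DKO libraries without passing the test. Gfap averaged 1.81 times the WT level by day and 1.79 times at night. Serpina3n averaged 1.71 times the WT level by day and 1.21 times at night. Stat3 averaged 1.12 times the WT level by day and 1.08 times at night. The receptor Cd44 averaged 1.11 times the WT level by day and 1.35 times at night, and the receptor Osmr 1.03 and 1.31 times. Both receptors stayed under 1 FPKM in every library, and their genotypes overlapped at both times. Differences were tested with limma on log2(FPKM + 1) over the 12689 genes with at least 0.5 FPKM in at least 3 libraries, and a gene was called at an adjusted p under 0.05 over all of them. All 6 genes passed this filter. In the average over both times 2 of 6 genes were called, both higher, beside 1.88% of all genes called in either direction. By day 1 of 6 was called, Serpina3n, beside 1.18% of all genes, and 4 of 6 had an unadjusted p under 0.05, beside 17% of all genes. At night 0 of 6 were called by limma, beside 0.0236% of all genes, and 2 of 6, Gfap and Vim, had an unadjusted p under 0.05, beside 9.18% of all genes. Without Night DKO replicate 1, limma called 2 of 6 genes in the average, 2 by day and 1 at night. Of all 12663 genes then tested it called 242, 160 and 38 in the same order.

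**Figure D1:**
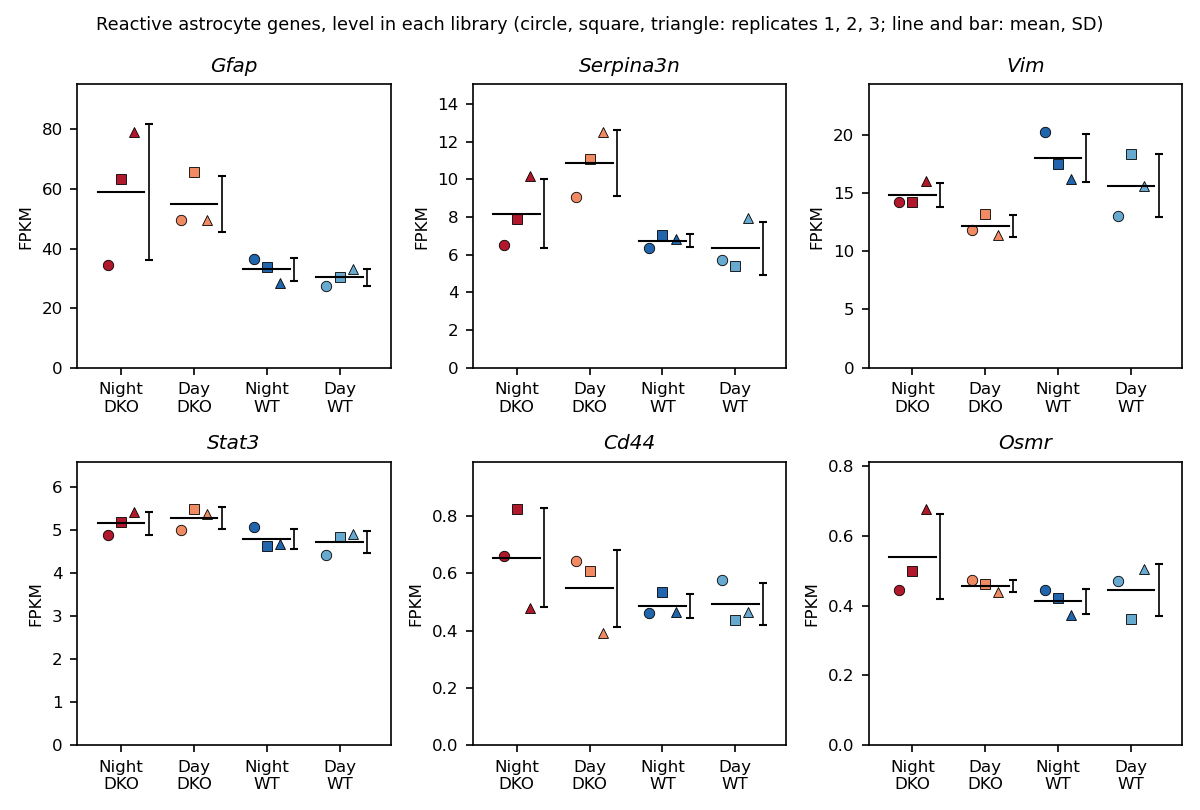
FPKM of each of the 6 genes (y axes, linear from 0) in the 12 libraries, with Night DKO, Day DKO, Night WT and Day WT from left to right; symbols are single libraries numbered by replicate, and lines with bars are means with SD (n = 3). The Day DKO libraries of Gfap and Serpina3n lie above all Day WT libraries, Night DKO replicate 1 lies among the Night WT libraries for both genes, and Vim is lower in every Night DKO library than in any Night WT library.

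Gfap encodes the main intermediate filament of mature astrocytes and was the most abundant gene of the set, ranking between 309th and 1033rd of all genes in a library. Its level was 34.4, 63.3 and 79.2 FPKM in Night DKO libraries 1 to 3 and 49.6, 65.8 and 49.6 FPKM in Day DKO libraries, against 36.4, 33.9 and 28.6 FPKM in Night WT libraries and 27.4, 30.4 and 33.2 FPKM in Day WT libraries. By day every DKO library was above every WT library, as 14.3% of all genes were in that direction, and at night Night DKO replicate 1 lay among the WT libraries while the other 2 lay above them. The means were 58.9 ± 22.7 FPKM in Night DKO, 55.0 ± 9.35 in Day DKO, 33.0 ± 4.01 in Night WT and 30.4 ± 2.90 in Day WT (SD, n = 3 each), so that the spread was widest in Night DKO. In that order of levels neither the 2 DKO groups nor the 2 WT groups differed from each other beyond their spread. The difference averaged over the times was 0.79 on the log2(FPKM + 1) scale (SE 0.160, 95% interval 0.44 to 1.13, limma adjusted p = 0.0290).

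The difference of Gfap was 0.83 by day (95% interval 0.34 to 1.32, limma adjusted p = 0.0984) and 0.75 at night (0.26 to 1.24, limma adjusted p = 0.339). Without Night DKO replicate 1 the night difference was 1.09 and was called (limma adjusted p = 0.00329), and the day difference was called as well (limma adjusted p = 0.0116), since the groups share their estimate of the spread. The averaged call of Gfap was lost when Night DKO replicate 2 or 3, Day DKO replicate 2 or 3, Night WT replicate 1 or 3, or Day WT replicate 1 or 2 was left out, with limma adjusted p between 0.0518 and 0.0760 and differences between 0.66 and 0.82. An exact permutation of the genotype labels within each time, 2-sided over 400 arrangements, gave p = 0.01, where the smallest p this design allows is 0.005.

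Vim encodes vimentin, a filament protein of astrocytes that is also made by endothelial cells, fibroblasts, ependymal cells and microglia. Its level was 14.2, 14.3 and 16.0 FPKM in Night DKO libraries and 11.8, 13.2 and 11.4 FPKM in Day DKO libraries, against 20.3, 17.5 and 16.2 FPKM in Night WT libraries and 13.0, 18.3 and 15.6 FPKM in Day WT libraries. At night every DKO library was below every WT library, as 9.48% of all genes were in that direction, and by day Day WT replicate 1 lay within the DKO range. The means were 14.8 ± 1.03 FPKM in Night DKO, 12.1 ± 0.949 in Day DKO, 18.0 ± 2.07 in Night WT and 15.6 ± 2.67 in Day WT (SD, n = 3 each). By mean, Night WT was highest and Day DKO lowest, so that both WT groups lay above both DKO groups, unlike for Gfap, and Day WT and Night DKO differed by less than the spread of Day WT. The averaged difference was -0.29 (SE 0.0775, 95% interval -0.46 to -0.13, limma adjusted p = 0.0739) and the exact permutation p was 0.015, 2-sided.

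The difference of Vim was -0.33 by day (95% interval -0.57 to -0.09, limma adjusted p = 0.160) and -0.26 at night (-0.50 to -0.02, limma adjusted p = 0.506). It passed the test in the averaged comparison under another scaling of the libraries, with -0.31 by median-of-ratios factors (limma adjusted p = 0.0432) and -0.32 by quantile normalization (limma adjusted p = 0.0399), and without Day WT replicate 1, with -0.35 (limma adjusted p = 0.0283).

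Serpina3n encodes a secreted inhibitor of serine proteases that astrocytes produce in inflammation. Its level was 6.50, 7.89 and 10.2 FPKM in Night DKO libraries and 9.05, 11.1 and 12.5 FPKM in Day DKO libraries, against 6.36, 7.03 and 6.84 FPKM in Night WT libraries and 5.71, 5.38 and 7.97 FPKM in Day WT libraries. By day all DKO libraries were above all WT libraries, and at night Night DKO replicate 1 lay among the WT libraries. The means were 8.18 ± 1.84 FPKM in Night DKO, 10.9 ± 1.75 in Day DKO, 6.75 ± 0.346 in Night WT and 6.35 ± 1.41 in Day WT (SD, n = 3 each). The order by mean placed Day DKO first and Night DKO next, and neither Night DKO and Night WT nor the 2 WT groups differed beyond their spread. The day difference was 0.70 (SE 0.152, 95% interval 0.37 to 1.03) and was called (limma adjusted p = 0.0479).

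The averaged difference of Serpina3n was 0.46 (SE 0.108, 95% interval 0.23 to 0.70, limma adjusted p = 0.0479, exact permutation p = 0.015), and the night difference was 0.23 (-0.10 to 0.56, limma adjusted p = 0.699). Both calls lay close to the threshold. The day call was lost when Night DKO replicate 2, Day DKO replicate 2 or 3, Day WT replicate 1 or 2 or any Night WT library was left out, with limma adjusted p between 0.0646 and 0.165 and differences between 0.60 and 0.70. In a fit of the 2 day groups alone, Serpina3n was not called (limma adjusted p = 0.0923) and Gfap was (limma adjusted p = 0.0383). The averaged call was lost without any of the same 8 libraries or Night DKO replicate 3, with limma adjusted p between 0.0649 and 0.124 and differences between 0.39 and 0.48. The genotype difference at night minus that by day was -0.47 (95% interval -0.94 to -0.01, unadjusted p = 0.0473, limma adjusted p = 0.573), so a difference in size between the times was not shown.

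Cd44 encodes a surface receptor for hyaluronan and osteopontin that reactive astrocytes and immune cells carry. It was 0.662, 0.825 and 0.478 FPKM in Night DKO libraries and 0.642, 0.607 and 0.393 FPKM in Day DKO libraries, against 0.460, 0.533 and 0.465 FPKM in Night WT libraries and 0.576, 0.437 and 0.465 FPKM in Day WT libraries. The genotypes overlapped at both times, and the lowest library of all was Day DKO replicate 3. The averaged difference was 0.10 (95% interval -0.04 to 0.24, limma adjusted p = 0.462, exact permutation p = 0.145). At levels under 1 FPKM the pseudocount of 1 shrinks a difference, and with a pseudocount of 0.1 the averaged value was 0.23 (limma adjusted p = 0.495).

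Osmr encodes the oncostatin M receptor subunit that pairs with gp130. It was 0.444, 0.5005 and 0.677 FPKM in Night DKO libraries and 0.472, 0.461 and 0.439 FPKM in Day DKO libraries, against 0.445, 0.421 and 0.373 FPKM in Night WT libraries and 0.472, 0.362 and 0.505 FPKM in Day WT libraries. Night DKO replicates 2 and 3 and Day WT replicate 3 alone brought it past the filter on low values, and the genotypes overlapped at both times. The averaged difference was 0.07 (95% interval -0.04 to 0.18, limma adjusted p = 0.551, exact permutation p = 0.145), and 0.17 with a pseudocount of 0.1 (limma adjusted p = 0.558). The means of Osmr were 0.541 ± 0.122 FPKM in Night DKO, 0.457 ± 0.0172 in Day DKO, 0.413 ± 0.0362 in Night WT and 0.446 ± 0.0748 in Day WT, and those of Cd44 were 0.655 ± 0.174, 0.548 ± 0.135, 0.486 ± 0.0411 and 0.493 ± 0.0735 FPKM in the same order of groups (SD, n = 3 each). For neither receptor did any neighbours in the order of group means differ beyond their spread.

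Stat3 encodes the transcription factor that gp130 receptors activate by phosphorylation, so its RNA level is not a measure of its activity. It was 4.89, 5.18 and 5.42 FPKM in Night DKO libraries and 4.997, 5.49 and 5.37 FPKM in Day DKO libraries, against 5.06, 4.64 and 4.67 FPKM in Night WT libraries and 4.42, 4.84 and 4.90 FPKM in Day WT libraries. By day all DKO libraries were above all WT libraries, by a narrow margin, and at night they overlapped. The means were 5.16 ± 0.267 FPKM in Night DKO, 5.29 ± 0.258 in Day DKO, 4.79 ± 0.236 in Night WT and 4.72 ± 0.262 in Day WT (SD, n = 3 each). The averaged difference was 0.11 (SE 0.0430, 95% interval 0.02 to 0.21, limma adjusted p = 0.208, exact permutation p = 0.02), and no call was made.

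The median difference of the 6 genes was 0.09 by day, 0.14 at night and 0.11 in the average, against 0.04, -0.01 and 0.01 over all genes tested, and 5 of 6 were positive each time, beside 62.8%, 46.2% and 57.4% of all genes. By day 3 of 6 genes had no overlap between the genotypes, Gfap, Serpina3n and Stat3, beside 19.6% of all genes. At night 1 of 6 had none, Vim, beside 15.2% of all genes. An unadjusted p under 0.05 was found for 4 of 6 genes in the averaged comparison, beside 16.2% of all genes.

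**Figure D2:**
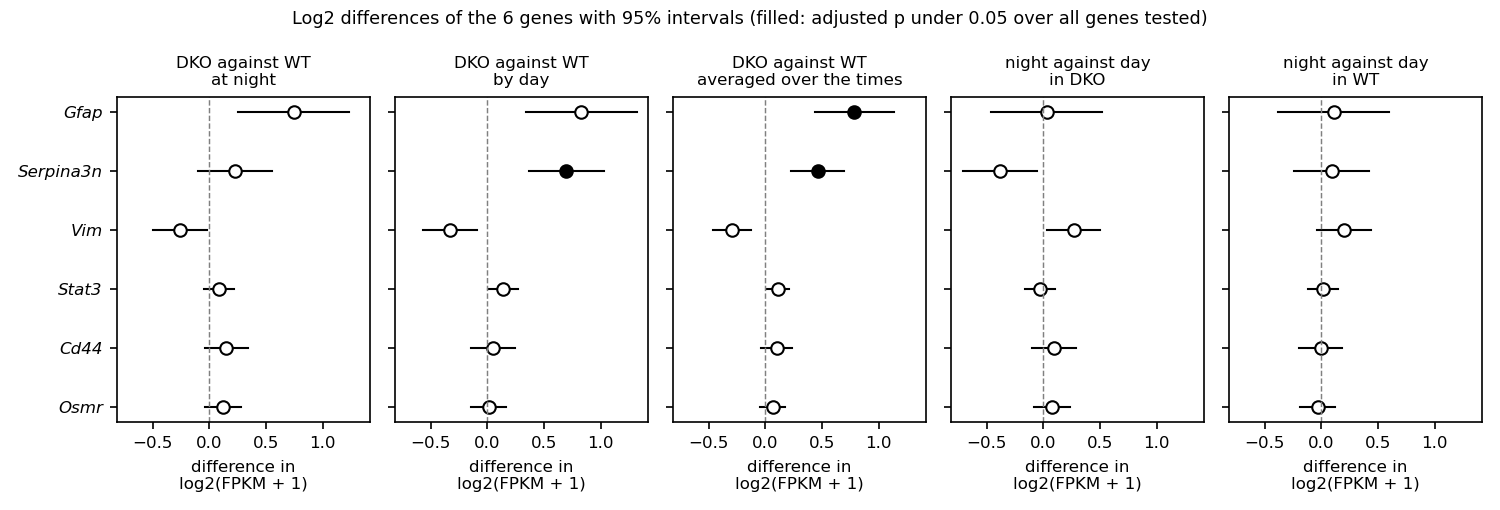
Differences in log2(FPKM + 1) of the 6 genes (x axes, points) with 95% intervals from limma (n = 3 libraries a group), 1 panel a comparison; filled points had an adjusted p under 0.05 over all genes tested. Filled points stand for Gfap and Serpina3n in the averaged genotype comparison and for Serpina3n by day, and the intervals of Gfap are about as wide at night as by day because the groups share 1 estimate of spread.

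By time of day none of the 6 genes was called. In DKO, night against day, limma called 0 of 6 genes, beside 0.299% of all genes, and 2 of 6, Vim and Serpina3n, had an unadjusted p under 0.05, beside 15.1% of all genes. Vim averaged 1.22 times its Day DKO level in Night DKO, a difference of 0.27 (95% interval 0.03 to 0.51, limma adjusted p = 0.276). Serpina3n averaged 0.752 times its Day DKO level in Night DKO, a difference of -0.38 (-0.71 to -0.05, limma adjusted p = 0.267). Vim alone had no overlap between Night DKO and Day DKO, beside 19.4% of all genes. Gfap differed by 0.03 between the times in DKO (95% interval -0.46 to 0.52).

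In WT, night against day, limma called 0 of 6 genes, beside 1.67% of all genes, and 0 of 6 had an unadjusted p under 0.05, beside 22.3% of all genes. The largest difference was that of Vim, 0.20 (95% interval -0.04 to 0.44, limma adjusted p = 0.305), and Gfap had 0.11 (-0.38 to 0.60), Serpina3n 0.09 (-0.24 to 0.42), Stat3 0.02, Cd44 -0.01 and Osmr -0.03. The median over all genes tested in this comparison was itself 0.07. For the interaction of genotype and time, limma called 0 of 6 genes, beside 0% of all genes, and 1 of 6, Serpina3n, had an unadjusted p under 0.05, beside 8.66% of all genes.

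Gfap and Vim can be set against each other within a library, which removes differences in scaling between libraries. The ratio of Gfap to Vim was 2.42, 4.44 and 4.94 in Night DKO libraries and 4.20, 4.98 and 4.35 in Day DKO libraries, against 1.80, 1.94 and 1.76 in Night WT libraries and 2.11, 1.66 and 2.13 in Day WT libraries. Every DKO library was above every WT library, with Night DKO replicate 1 the nearest. The ratio of Serpina3n to Vim was 0.458, 0.554 and 0.634 in Night DKO libraries and 0.765, 0.839 and 1.10 in Day DKO libraries, against 0.314, 0.402 and 0.423 in Night WT libraries and 0.440, 0.294 and 0.511 in Day WT libraries. These ratios were chosen after the values of the genes had been seen and are a description with no test. They show unequal change, not which gene of a pair changed.

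**Figure D3:**
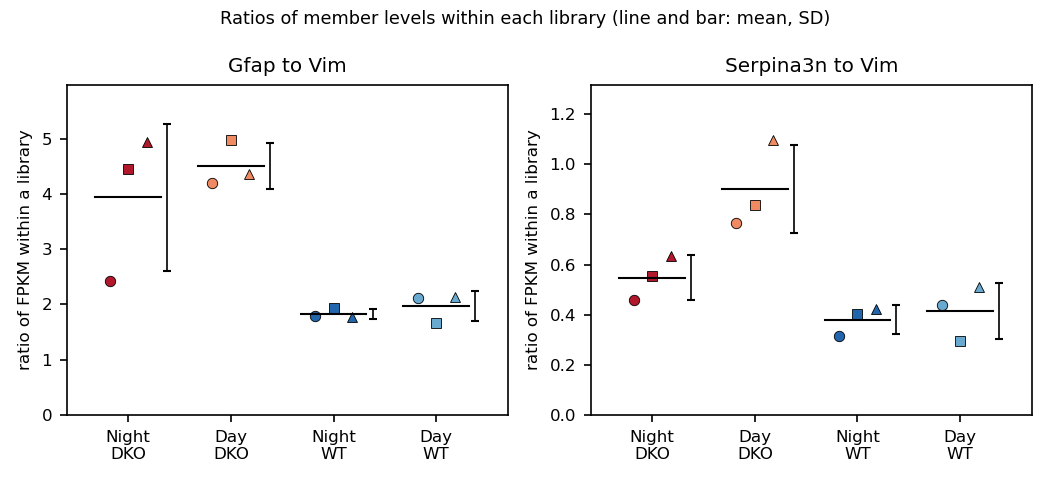
Ratios of FPKM between pairs of the genes within each library (y axes, linear from 0), with Night DKO, Day DKO, Night WT and Day WT from left to right; symbols are single libraries and lines with bars are means with SD (n = 3). The ratio of Gfap to Vim is 2.42 or more in DKO libraries and 2.13 or less in WT libraries.

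Markers of unreactive astrocytes had more positive than negative differences, as did all genes tested in the average and by day. Of these markers 1 passed the test in the average. Of 16 homeostatic astrocyte markers, 1 was called in the averaged genotype comparison, Kcnj10, a potassium channel of astrocyte endfeet, which was higher in DKO at 0.46 (limma adjusted p = 0.00721), and 0 were lower. Kcnj10 was 5.96 to 8.58 FPKM in DKO libraries and 4.08 to 5.96 FPKM in WT libraries. In the average 6 of 16 had an unadjusted p under 0.05, beside 16.2% of all genes. Positive were 11 of 16, beside 57.4%, and the median was 0.08, beside 0.01. By day limma called 0 of 16, and 8 of 16 had an unadjusted p under 0.05, beside 17% of all genes. Positive by day were 13 of 16, beside 62.8%, and the median was 0.15, beside 0.04. At night limma called 0 of 16, and 2 of 16 had an unadjusted p under 0.05, beside 9.18% of all genes. Positive at night were 9 of 16, beside 46.2%, and the median was 0.05, beside -0.01. The part of these shifts in the values of Gfap was not tested. The glutamate transporter Slc1a2, the water channel Aqp4 and the gap junction gene Gja1 were among those not called. Sox9, a transcription factor of astrocytes, was lower at night than by day in WT by a difference of -0.42 (limma adjusted p = 0.0429). The log2(FPKM + 1) of Gfap minus the mean of the 16 markers was 0.19, 1.08 and 1.29 in Night DKO libraries and 0.70, 1.05 and 0.77 in Day DKO libraries, against 0.30, 0.15 and 0.02 in Night WT libraries and 0.06, 0.09 and 0.22 in Day WT libraries. With the mean level of these markers as a covariate, the averaged difference of Gfap was 0.53 (limma adjusted p = 0.313), and that of Vim was -0.46 and was called lower (limma adjusted p = 0.0201). In this fit limma called 74 of all 12689 genes in the average, 7 higher and 67 lower, against 238 without the covariate.

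Other genes known from reactive astrocytes were grouped as a pan-reactive list, a list of astrocytes in systemic inflammation and a list of astrocytes after ischemic injury. Of the 13 pan-reactive genes, 8 passed the filter, and in the averaged comparison 2 were higher, Gfap and Serpina3n, and 1 was lower. That gene was Cp, which encodes the copper-carrying ferroxidase ceruloplasmin, at -0.40 (limma adjusted p = 0.0263), with 1.01 to 1.58 FPKM in DKO libraries and 1.57 to 2.67 FPKM in WT libraries. The heat shock gene Hspb1 had -0.48 (limma adjusted p = 0.0709), and the list's median was -0.02. Lcn2, Timp1, Cxcl10, Steap4 and Aspg did not pass the filter, and Lcn2, a gene strongly induced in acutely reactive astrocytes, was 0.267 FPKM or less in every library.

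Of 12 inflammation-type genes, 10 passed the filter, 0 were higher and 2 were lower in the averaged comparison, with a median of -0.01. The lower genes were Serping1, which encodes the inhibitor of complement C1, at -0.57 (limma adjusted p = 0.0146), and Gbp2, an interferon-induced GTPase, at -0.22 (limma adjusted p = 0.0473). Fkbp5, a glucocorticoid-induced chaperone, was higher in DKO by day at 0.44 (limma adjusted p = 0.0368), with 9.32 to 10.6 FPKM in Day DKO and 6.27 to 7.76 FPKM in Day WT libraries, and in WT it was higher at night than by day by 0.59 (limma adjusted p = 0.0180). Of 12 injury-type genes, 7 passed the filter, and 0 were called by limma in the averaged comparison, where 3 had an unadjusted p under 0.05 and the median was 0.00. Ptgs2, which encodes cyclooxygenase-2 and is made mostly by neurons in the hippocampus, was higher in DKO by day at 0.58 (limma adjusted p = 0.0361), and Tm4sf1 had -0.32 in the average (limma adjusted p = 0.0565).

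The ligands and receptors upstream of STAT3 were low or did not pass the test. Of 8 gp130 cytokines, 3 passed the filter, among them Cntf and Ctf1 with averaged differences of 0.07 and 0.15. Of the 3, limma called 0, and 0 had an unadjusted p under 0.05. Il6 was 0.0330 FPKM or less in every library and was listed at 0 in 9 of 12, and Osm, the ligand of OSMR, was 0.114 FPKM or less. Of 6 gp130 receptor genes limma called 0, and 1 had an unadjusted p under 0.05: Il6st, which encodes gp130, at -0.12 (95% interval -0.23 to -0.01, limma adjusted p = 0.240). Of the 6 JAK and STAT genes that passed the filter limma called 0, and 1, Stat3, had an unadjusted p under 0.05, with a median of 0.04. Stat5a, which overlaps Stat3, did not pass it at 0.187 to 0.439 FPKM.

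Downstream of STAT3, 8 of 12 known target genes passed the filter and limma called 0 in the average, with a median of 0.07. An unadjusted p under 0.05 was found for 1 of them, Bcl6, a transcriptional repressor, at 0.16 (limma adjusted p = 0.0945). Socs3, the feedback inhibitor that STAT3 induces, was 0.359 to 0.845 FPKM in DKO libraries and 0.230 to 0.740 FPKM in WT libraries and differed by -0.01 (95% interval -0.21 to 0.19), and limma called 0 of the 5 STAT3 inhibitors tested, 1 of which had an unadjusted p under 0.05. Among 11 intermediate filament and linker genes, Gfap was the 1 called. Nes, which encodes nestin, had -0.21 (limma adjusted p = 0.0566), Des -0.22 (limma adjusted p = 0.0983) and Synm -0.15 (limma adjusted p = 0.217), and the list's median was -0.06. Of 6 tested genes for ligands, linkers and hyaluronan enzymes of the CD44 system limma called 0, and 3 had an unadjusted p under 0.05, among them Spp1, which encodes osteopontin, at -0.46 (limma adjusted p = 0.246).

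**Figure D4:**
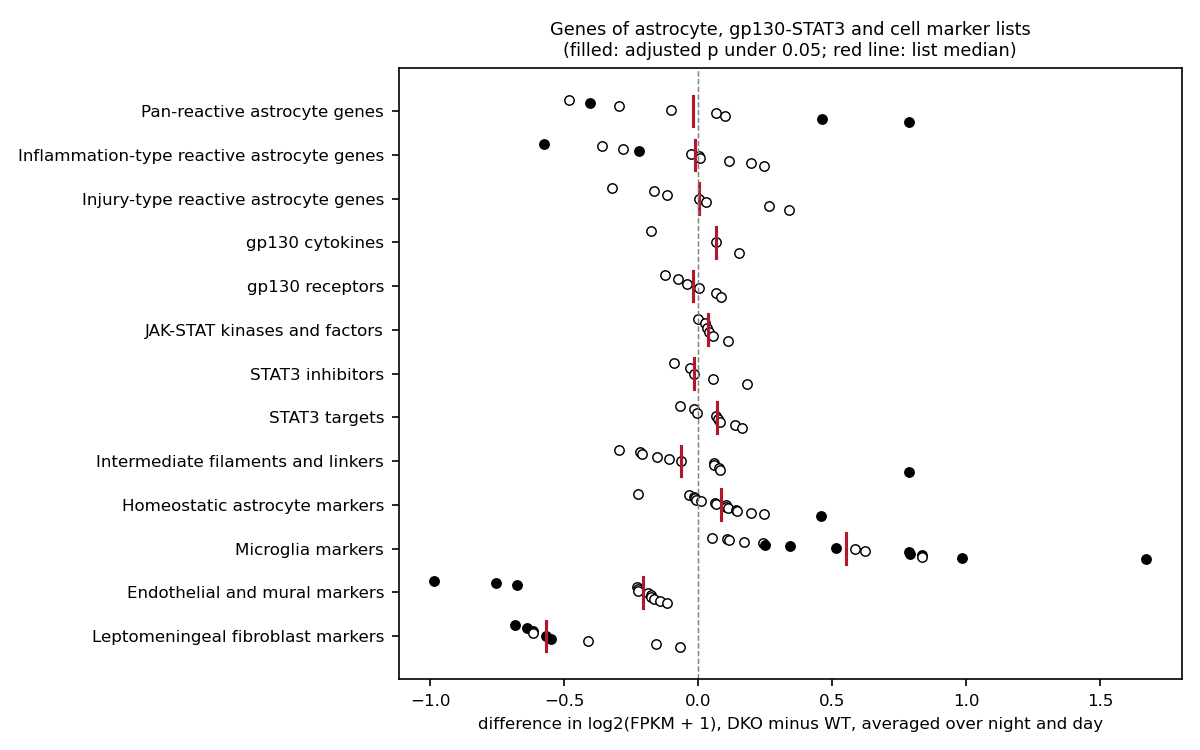
Difference between DKO and WT in log2(FPKM + 1), averaged over the times (x axis), for each tested gene of the lists (rows); points are genes, filled where the adjusted p was under 0.05, and red lines are list medians. The lists around gp130 and STAT3 have medians between -0.02 and 0.07, beside 0.01 over all genes tested. The microglia list lies above 0 with a median of 0.55, and the leptomeningeal fibroblast list lies below 0 with a median of -0.57.

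Markers of other cell types moved with genotype beside these genes. Of 16 microglia markers 8 were called higher in DKO in the averaged comparison and 0 lower, with a median of 0.55, among them Aif1 at 0.34, Tyrobp at 0.99 and C1qc at 0.79, each with a limma adjusted p under the threshold. Their summed level was 150, 306 and 309 FPKM in Night DKO libraries and 222 to 247 FPKM in Day DKO libraries, against 147 to 164 FPKM in Night WT libraries and 132 to 148 FPKM in Day WT libraries. The same library, Night DKO replicate 1, was nearest to WT in the microglia markers, in Gfap and in Serpina3n. With the mean microglia marker level as a covariate, the averaged difference of Gfap was 0.09 (limma adjusted p = 0.933) and that of Serpina3n 0.20 (limma adjusted p = 0.862), while that of Vim was -0.40 (limma adjusted p = 0.515). In this fit limma called 1 of all 12689 genes in the average, against 238 without the covariate, so a lost call was not particular to these genes. The part of microglia in these results was not tested, since their level differs between the genotypes as Gfap does.

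Of 12 endothelial and mural markers 3 were called lower in DKO, the smooth muscle genes Tagln at -0.98, Myh11 at -0.68 and Acta2 at -0.76, and the list's median was -0.20. Of 9 leptomeningeal fibroblast markers 5 were lower, Lum, Slc13a4, Igf2, Ogn and Col3a1, with a median of -0.57. The fibroblast markers summed to 48.0 to 54.9 FPKM in Night DKO and 34.8 to 43.7 FPKM in Day DKO libraries, against 63.2 to 76.4 FPKM in Night WT and 53.1 to 71.3 FPKM in Day WT libraries. Ordered by the median of these sums, the groups ran as they did by the mean of Vim. The endothelial and mural markers summed to 44.1 to 54.3 FPKM in DKO libraries and 54.1 to 75.5 FPKM in WT libraries. With their mean level as a covariate the averaged difference of Vim was 0.10 (limma adjusted p = 0.813), and with the fibroblast level it was -0.02 (limma adjusted p = 0.999). With the fibroblast level Serpina3n had 0.12 and Gfap 0.73, each also with a limma adjusted p of 0.999. With the endothelial and mural level Serpina3n had 0.56 (limma adjusted p = 0.684) and Gfap 1.12 (limma adjusted p = 0.547). Under either covariate limma called 0 of all 12689 genes in the average, against 238 without it, so a lost call was not particular to these genes. The part of these cells in the values of Vim was not tested. Of the other lists, neurons had 0 of 10, choroid plexus 0 of 10 and ependyma 0 of 6 markers called by limma in the averaged comparison, with medians of 0.04, -0.56 and -0.19, and 2, 0 and 0 of them had an unadjusted p under 0.05. By day, where Serpina3n was called, limma called 0 of 10 choroid plexus markers, but all 10 were negative with a median of -1.08 and 8 had an unadjusted p under 0.05. They summed to 77.5 to 1873 FPKM in Day DKO and 1176 to 2901 FPKM in Day WT libraries. With their mean level as a covariate the day difference of Serpina3n was 0.60 (limma adjusted p = 0.272), and limma called 6 of all genes by day, against 150 without it. The part of choroid plexus in the difference of Serpina3n was not tested. In the average, oligodendrocytes had 1 of 8 lower, Opalin at -0.40, with all 8 negative and 7 at an unadjusted p under 0.05. Blood had 3 of 5 lower, Hbb-bt, Hbb-bs and Alas2, with all 5 negative and 5 at an unadjusted p under 0.05.

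**Figure D5:**
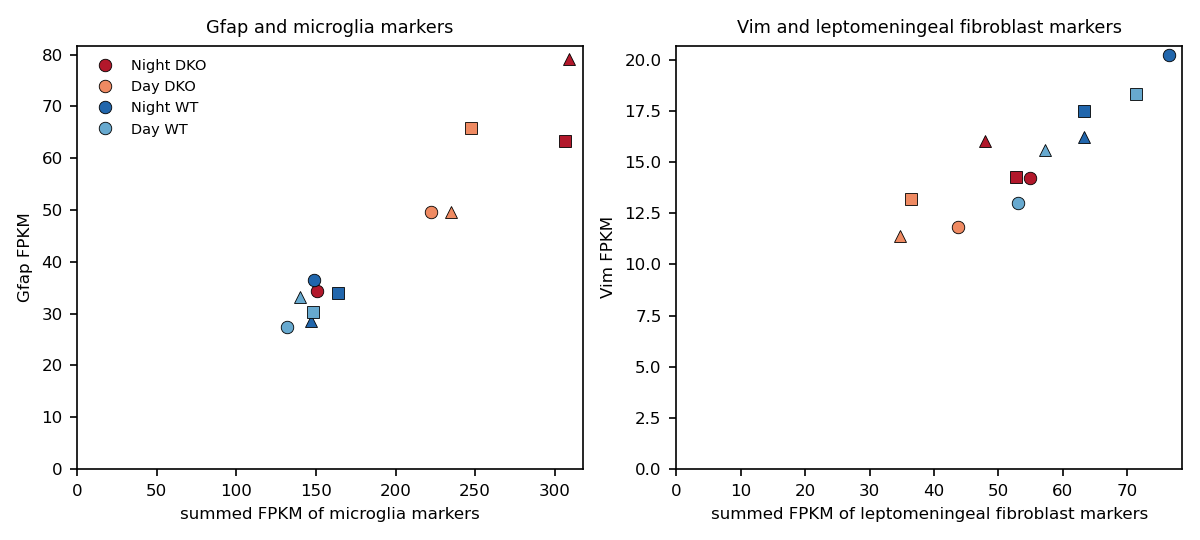
FPKM of Gfap against the summed FPKM of 16 microglia markers (left) and of Vim against that of 9 leptomeningeal fibroblast markers (right), linear from 0, with 1 symbol a library and 1 color a group. The DKO libraries other than Night DKO replicate 1 have more microglia marker RNA and more Gfap than any WT library. Night DKO replicate 1 (the red circle) lies among the WT libraries at 150 and 34.4 FPKM. Within a genotype not every library keeps this order, and the relation was not tested. The 3 Day DKO libraries are lowest in the fibroblast markers and near the lowest in Vim.

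For each of the 6 genes, the 3 genes whose levels followed it most closely over the 12 libraries were found. None of them was on the homeostatic astrocyte list, which holds only 16 of the 12689 genes tested. These Pearson correlations of log2(FPKM + 1) are a description: the points share 4 groups and the genotype difference, and the genes were picked as the highest of all tested. For Gfap they were the complement genes C1qa (r = 0.979) and C1qc (r = 0.969) and the phagocyte gene Plek (r = 0.953). C1qa averaged 40.6 FPKM in Night DKO, 38.1 in Day DKO, 21.3 in Night WT and 20.1 in Day WT. For Vim they included the Hedgehog signal transducer Smo (r = 0.952), which averaged 3.96 FPKM in Night DKO, 3.47 in Day DKO, 4.37 in Night WT and 4.16 in Day WT.

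For Serpina3n they were the glypican Gpc1 (r = 0.953), Ptgs2 (r = 0.953) and Mmd (r = 0.951), and Gpc1 averaged 13.7 FPKM in Night DKO, 17.3 in Day DKO, 11.7 in Night WT and 12.1 in Day WT. For Stat3 they were the hexokinase Hk2 (r = 0.956), Gfap (r = 0.880) and Luzp2 (r = 0.875), and Hk2 averaged 0.944 FPKM in Night DKO, 1.03 in Day DKO, 0.737 in Night WT and 0.724 in Day WT. The likeness was lower for the genes near the filter, at most 0.888 for Cd44 with Zfp365 and 0.870 for Osmr with Klhdc1. Within a genotype, none of the 30 correlations between pairs of the 6 genes passed an exact permutation test (n = 6 libraries, smallest adjusted p = 0.333 for Pearson's r and 0.510 for Spearman's rho). Before adjustment the smallest exact permutation p of Pearson's r was 0.0417, for Cd44 and Stat3 in WT libraries (r = -0.816). Without the 2 libraries farthest from the median of Cd44 this r was -0.0424. For Spearman's rho the smallest exact permutation p before adjustment was 0.0333, for Serpina3n and Cd44 in DKO libraries (rho = -0.886). Serpina3n and Stat3 had r = 0.828 in DKO libraries (exact permutation p = 0.05 before adjustment), and 0.735 without the 2 libraries farthest from the median of Serpina3n. The pair of Gfap and Stat3 had r = 0.791 in DKO libraries (exact permutation p = 0.0583 before adjustment), and 0.475 without the 2 libraries farthest from the median of Gfap.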

How the data were processed

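RNA-seq libraries of 12 hippocampus samples were made, per the labels' protocols, from total RNA (mirVana kit) with ribosomal RNA removed and a stranded TruSeq kit. The authors deposited a table of FPKM per gene for each library, a unit inferred from the values, as headers hold sample names alone. The submitters' processing notes give build GRCm38.p6, and the sources used here do not name the aligner, quantifier or annotation release. Library sums of FPKM were 151059 to 175692. For 27 genes whose symbols had become dates, the symbol was looked up by gene ID. The fit was made in limma 3.58.1 (R 4.3.3) to log2(FPKM + 1) of the 12689 genes reaching 0.5 FPKM in at least 3 libraries, with a mean for each of the 4 groups and a variance trend. The p-values were 2-sided and adjusted by Benjamini and Hochberg over all genes tested. The fit was tested on simulated data. Along with all 6 genes and Psen2, genes of 22 lists (193 genes, 192 in the tables) were named where called or among the 4 with the smallest p, and the 3 genes most like each member; some of these are not reported here. The members and lists were chosen with earlier results of these data known. The 25 alternative settings included 3 chosen after seeing the data: endothelial and mural, leptomeningeal fibroblast and microglia marker levels as covariates. Promoter windows came from RefSeq, build GRCm38.p6, and overlaps of exons from GENCODE.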

Additional observations from a re-analysis of the deposited data

How the results depend on the processing

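Over the 25 alternative settings the count of the 6 genes called ranged from 0 to 2 by day, 0 to 1 at night and 0 to 3 in the averaged genotype comparison, was 0 throughout for night against day in DKO and for the interaction, and was 0 to 1 for night against day in WT. The day count was 1 and became 0 with no filter on low values, with median-of-ratios scaling, with quantile normalization and with the choroid plexus, homeostatic astrocyte, endothelial and mural, leptomeningeal fibroblast or microglia level as a covariate, and it ranged from 0 to 2 when 1 library was left out. With only the groups compared it stayed 1, but Gfap (limma adjusted p = 0.0383) took the place of Serpina3n (limma adjusted p = 0.0923). The night count was 0 and ranged from 0 to 1 when 1 library was left out, the call of Gfap being made without Night DKO replicate 1. The averaged count was 2. It was 1 with a pseudocount of 0.1 (Serpina3n then had a limma adjusted p of 0.0501), 1 with the homeostatic astrocyte level (Vim, lower), and 0 with no filter or with the choroid plexus, endothelial and mural, leptomeningeal fibroblast or microglia level, and it ranged from 0 to 2 when 1 library was left out. With quantile normalization it stayed 2, but Vim (lower, limma adjusted p = 0.0399) took the place of Serpina3n (limma adjusted p = 0.0545). The WT count by time was 0, and 1 with the endothelial and mural level (Vim, 0.30, limma adjusted p = 0.0481). For these changes the cause was not tested. Without the filter, 17914 genes entered both the fit of the variance trend and the adjustment. The count over all genes was 150 by day (0 to 205 over the settings), 3 at night (0 to 38), 238 in the average (0 to 339), 38 for time in DKO (8 to 69), 212 for time in WT (1 to 418) and 0 for the interaction (0 to 1).

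Differences that changed sign were those of genes not called, and the cause was not tested. By day, Vim had 0.16 with the endothelial and mural level and 2.36e-05 with the fibroblast level. Cd44 had -0.02 with the choroid plexus level and -0.10 with the endothelial and mural level, and in the average it had -0.0202 with the endothelial and mural level. Osmr by day had -0.00274 with median-of-ratios scaling, -0.0199 with the choroid plexus level, -0.0364 with the astrocyte level, -0.0414 with the fibroblast level, -0.0649 with the microglia level and -0.0301 to 0.0259 when 1 library was left out, lowest without Day WT replicate 2, and in the average it had -0.00582 with the microglia level. Vim had 0.0481 at night and 0.102 in the average with the endothelial and mural level. Serpina3n at night had -0.0457 with the fibroblast level and -0.0208 with the microglia level.

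For night against day in DKO, Gfap had -0.0203 with the astrocyte, -0.0362 with the endothelial and mural and -0.00994 with the microglia level, and -0.220 to 0.371 when 1 library was left out, negative without Night DKO replicate 2 or 3 or Day DKO replicate 1 or 3. Stat3 had -0.0619 to 0.00413 when 1 library was left out, positive without Night DKO replicate 1. In WT, Gfap had -0.0143 with quantile normalization, -0.129 with the astrocyte and -0.00752 with the microglia level. Serpina3n had -0.00288 to 0.242 when 1 library was left out, negative without Day WT replicate 2, and Cd44 had 0.00573 with the choroid plexus level, 0.0184 with the astrocyte level and -0.0328 to 0.0337 when 1 library was left out, positive without Night WT replicate 1 or 3 or Day WT replicate 1. Stat3 had -0.0561 with median-of-ratios scaling, -0.0512 with quantile normalization, -0.0207 with the astrocyte level and -0.0201 to 0.0414 when 1 library was left out, negative without Night WT replicate 1 or Day WT replicate 1. For the interaction, Gfap had 0.0296 with quantile normalization, 0.163 with the choroid plexus level, 0.109 with the astrocyte level and -0.332 to 0.258 when 1 library was left out, positive without Day DKO replicate 2 or Night DKO replicate 1. Vim had -0.108 with the endothelial and mural level, -0.0444 with the fibroblast level and -0.0441 to 0.189 when 1 library was left out, negative without Day WT replicate 2, and Stat3 had 0.00286 with median-of-ratios scaling.

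Correlations of same-numbered libraries between the groups compared ranged from -0.116 to 0.178, so the numbers were not taken to pair the libraries. With the replicate block, limma called 1 of the 6 genes by day, 0 at night and 2 in the average, and 178, 5 and 302 of all genes. Osmr, near the filter, could be fitted in 21 of the 25 settings and Cd44 in 24. The number of reads is unknown, so counting error at levels under 1 FPKM, as of Cd44 and Osmr, could not be bounded.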
